A study of Mus musculus with 8 samples.

Results

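Small nucleolar RNAs (snoRNAs) and small Cajal body RNAs (scaRNAs) were followed in nuclear RNA of mouse embryonic stem cells of Mettl14 and Mettl3 conditional knockout (cKO) lines and their controls. The genes were those named Snora, Snord or Scarna with a number, annotated as snoRNA or scaRNA, with at least 10 counts summed over the 8 libraries. They were chosen by this summed count and by their names. Of 149 genes with such a name and annotation, 71 passed: 44 of the box C/D class, 19 of the box H/ACA class and 8 scaRNAs. They are 71 of the 54446 genes counted and of the 35072 that had the same minimum and were tested. Just outside the minimum stood Snord67 with 8 counts and Snora36b with 7, and just inside stood Scarna3b with 11 and Snora19 with 13.

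snoRNAs are guides. A box C/D RNA carries a C box near its start and a D box near its end, and binds fibrillarin, NOP56, NOP58 and SNU13. As a guide it pairs with ribosomal RNA to place a methyl group on a ribose. A box H/ACA RNA folds into hairpins, ends shortly after the letters ACA, and binds dyskerin, GAR1, NHP2 and NOP10. As a guide it directs the change of uridine to pseudouridine. scaRNAs do the same for spliceosomal snRNAs in Cajal bodies. In mammals most of these RNAs lie in introns of other genes, their hosts, and are trimmed out of the intron after splicing.

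The 8 libraries hold nuclear RNA of C57BL/6 embryonic stem cells depleted of ribosomal RNA, 2 libraries in each of 4 groups. Mettl14 control and Mettl14 cKO (conditional knockout of Mettl14) form one line, and Mettl3 control and Mettl3 cKO the other. All groups grew in serum with LIF and the inhibitors CHIR99021 and PD0325901. METTL3 is the catalytic subunit of the enzyme that writes m6A on RNA, and METTL14 is its partner. The labels leave out the Cre driver, the exons deleted, the time since deletion and whether a line is a single clone. They also do not say whether the libraries of a group derive from different cultures, so the p-values cover a spread that may be technical.

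Total counts ran from 17235889 to 20086128. Mettl14 stood at 59.4 and 56.7 CPM (counts scaled to a common library size) in its control and at 28.5 and 30.9 after knockout. The Mettl3 values were 35.8 and 34.0 CPM for Mettl3 control, then 19.8 and 18.6. All 10 embryonic stem cell markers were detected in every library. Their summed level was 3538 and 3573 CPM in the Mettl14 controls, 2622 and 2611 after knockout and 1266 to 1279 across the Mettl3 line. In Mettl14 cKO 1 of them rose and 9 fell. The 16 fibroblast markers summed to 981 and 985 CPM in the Mettl14 controls, 2117 and 2105 after knockout and 6843 to 8723 across the Mettl3 line. Of these 16 markers, 13 rose in Mettl14 cKO, and Lum was at 0 in 1 Mettl14 control library. The 8 primitive endoderm markers summed to 975 and 993 CPM in the Mettl14 controls, 1617 and 1589 after knockout and 2011 to 2385 across the Mettl3 line. Of these, 2 rose and 0 fell in Mettl14 cKO, and all were detected in every library.

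The sequences below, from the GENCODE M21 transcripts (GRCm38, the mm10 build), show the RNAs on which the results turn. Capitals mark TGATGA within the first 20 bases and CTGA within the last 15 bases of a box C/D RNA, or ACA within the last 8 bases of an H/ACA RNA or scaRNA. Snord23 had the highest and Snord73a the lowest fold change among the called C/D RNAs, Snord15a was the most abundant per base, and Snord11 and Snord70 lie in introns of the same gene, Nop58. The last 2 were chosen after their values were seen.
Snord23: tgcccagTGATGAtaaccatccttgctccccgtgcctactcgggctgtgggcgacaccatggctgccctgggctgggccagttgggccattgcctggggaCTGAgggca
Snord73a: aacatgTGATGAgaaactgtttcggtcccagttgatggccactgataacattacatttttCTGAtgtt
Snord15a: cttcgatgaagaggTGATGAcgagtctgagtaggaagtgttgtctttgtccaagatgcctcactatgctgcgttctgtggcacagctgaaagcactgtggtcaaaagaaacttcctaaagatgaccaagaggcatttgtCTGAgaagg
Snord11: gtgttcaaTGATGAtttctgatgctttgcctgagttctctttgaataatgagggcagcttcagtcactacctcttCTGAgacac
Snord70: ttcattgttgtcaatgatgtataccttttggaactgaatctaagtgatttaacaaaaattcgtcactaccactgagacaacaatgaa
Snord70 has neither of the capital motifs in these windows. Snora41 had the highest fold change of the called H/ACA RNAs, Snora73b is the H/ACA RNA U17 with a part in the cleavage of pre-ribosomal RNA, and Scarna13 is the scaRNA inside the noncoding gene Snhg10.
Snora41: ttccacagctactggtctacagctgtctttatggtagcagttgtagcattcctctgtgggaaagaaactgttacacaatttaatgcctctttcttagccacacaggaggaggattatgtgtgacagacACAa
Snora73b: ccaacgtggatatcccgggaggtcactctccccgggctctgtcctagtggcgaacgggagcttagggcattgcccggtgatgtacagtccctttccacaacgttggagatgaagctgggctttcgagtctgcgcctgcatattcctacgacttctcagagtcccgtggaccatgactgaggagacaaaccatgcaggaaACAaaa
Scarna13: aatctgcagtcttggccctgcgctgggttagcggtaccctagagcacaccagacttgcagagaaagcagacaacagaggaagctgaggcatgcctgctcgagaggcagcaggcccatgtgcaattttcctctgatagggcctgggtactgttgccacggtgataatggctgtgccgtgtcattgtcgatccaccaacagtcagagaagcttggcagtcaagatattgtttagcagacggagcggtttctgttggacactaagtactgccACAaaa
Among the 44 C/D RNAs, 28 held TGATGA in the first 20 bases, 40 held CTGA in the last 15 and 27 held both. Of 8280 other annotated transcripts of 60 to 300 bases, 0.0845% held both. All 19 H/ACA RNAs held ACA in their last 8 bases, against 10.8% of those other transcripts. These counts are of the transcript strand, and TGATGA can overlap CTGA. The annotated ends thus carry the boxes of the class for most of the RNAs.

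In the genome (mm10), Snord23 lies at chr7:15938762-15938870 on the minus strand, in an intron of Nop53. Snord73a lies at chr3:86138791-86138858, minus strand, in an intron of the ribosomal protein gene Rps3a1. Snord15a lies at chr7:99482785-99482932, minus strand, in an intron of the ribosomal protein gene Rps3. Snora41 lies at chr1:63179004-63179135, plus strand, in an intron of Eef1b2, a translation elongation factor gene. Snora73b lies at chr4:132352322-132352526, minus strand, in an intron of Rcc1, and Scarna13 at chr12:105031075-105031349, minus strand. Of the 71 RNAs, 63 lie inside another gene on the same strand, taken as the host. Where several genes contained an RNA, the host was the one with the most counts, small RNA genes and pseudogenes aside. Of the 63, 58 lie wholly in introns of the host and 5 touch an exon of it. The other 8 have no containing gene, among them Snord118, Snord13 and Scarna2.

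Which RNAs were countable at all followed the annotation. Of the 149 genes, 68 were listed at 0 in every library and 10 had 1 to 9 counts. Of the 68, 57 were wholly covered by a same-strand exon of another gene, whereas 0 of the 71 RNAs followed here were wholly covered and 12 were partly covered. The other 11 at 0 were 10 copies of Snord116 and Snora35. A wholly covered gene at 0 therefore says nothing about its level. An exon on the opposite strand wholly covered 3 of the 71, and these had counts, Snora73b with 35841.

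In Mettl14 cKO snoRNAs and scaRNAs of every class rose. Tested by edgeR's quasi-likelihood method, with p-values adjusted (Benjamini-Hochberg) over all 35072 genes, 42 of the 71 rose and 1 fell, at adjusted p under 0.05. The background was 10.9% of all genes tested called higher and 13.5% called lower. The median log2 fold change was 1.02 over the 71 RNAs and 0.15 over all genes tested. Both cKO libraries lay above both controls for 56 of the 71 and below them for 2, where 31.5% and 24.5% of all genes did so. Together the 71 RNAs took 0.143% and 0.158% of the counts for Mettl14 control, and this share was 0.379% and 0.363% after knockout. In a bulk measurement, a change in the share of cells of a type and a change in RNA per cell cannot be told apart. In the same libraries snRNA genes summed to 1988 and 2477 CPM in control and to 3750 and 3598 in cKO. By contrast 5.26% of miRNA genes were called higher, below the 10.9% of all genes. Whether the libraries differed in their recovery of short RNAs was not tested.

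Of the 44 box C/D RNAs, 23 rose and 1 fell, with a median of 1.02. Snord23 stood at 1.76 and 1.68 CPM in control and at 7.27 and 7.65 in cKO, a log2 fold change of 2.11 ± 0.23 (SE, n = 2 against 2, edgeR's adjusted p = 1.8e-18). Here and below the SE comes from edgeR's fit, which shares its estimate of spread over genes and groups. It is not the spread of the 2 libraries of a group. Snord93 stood at 3.06 and 2.72 CPM in control and at 9.62 and 10.1 in cKO (1.77 ± 0.19, edgeR's adjusted p = 5.0e-20). In both, the cKO libraries were far above the controls and close to each other. Snord110, in an intron of Nop56, stood at 6.26 and 6.93 CPM in control and at 23.2 and 19.5 in cKO (1.69 ± 0.14). Snord8 stood at 1.30 and 2.27 CPM in control and at 5.78 and 5.23 in cKO (1.62 ± 0.24). Snord83b, in an intron of the ribosomal protein gene Rpl3, stood at 15.5 and 19.4 CPM in control and at 63.3 and 60.02 in cKO (1.82 ± 0.32, edgeR's adjusted p = 0.021). Its control and cKO libraries did not overlap, but its call was lost without any single Mettl14 library and without either Mettl3 cKO library (adjusted p = 0.0595 to 0.131).

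The most abundant C/D RNAs moved by a like amount. Per kilobase of annotated length and averaged over the 8 libraries, Snord15a led with 2533 CPM per kilobase, followed by Snord17 with 1610, Snord49a with 559 and Snord35a with 442. Snord15a stood at 255 and 273 CPM in control and at 578 and 551 in cKO, a log2 fold change of 1.10 ± 0.03 (edgeR's adjusted p = 1.1e-289). Snord17 stood at 244 and 270 CPM in control and at 603 and 575 in cKO (1.20 ± 0.03). For both, the gap between groups was many times the gap between replicates. Without Snord15a and Snord17 the 71 RNAs still summed to 1246 and 1399 CPM in control and to 2860 and 2723 in cKO. Snord49a stood at 30.1 and 31.2 CPM in control and at 62.6 and 62.0 in cKO (1.02 ± 0.13), and Snord35a at 34.7 and 39.7 and then 86.7 and 83.8 (1.20 ± 0.28, edgeR's adjusted p = 0.051, not called).

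Snord73a was the RNA that fell. It stood at 8.47 and 9.45 CPM in control and at 5.49 and 6.23 in cKO, a log2 fold change of -0.61 ± 0.16 (SE, edgeR's adjusted p = 0.0011). The cKO libraries lay below both controls, and leaving out Mettl14 control replicate 2 ended the call (adjusted p = 0.0508). Of the 20 C/D RNAs not called, 18 had 80 or more counts and fold changes from -0.49 (Snord42b) to 1.53 (Snord58b). Among them were Snord53 (0.01 ± 0.21), Snord72 (0.04 ± 0.21) and Snord59a (-0.04 ± 0.29), whose intervals span both directions.

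Among the 19 H/ACA RNAs, 14 rose and 0 fell by edgeR's test, with a median log2 fold change of 1.20 (0 fell at an unadjusted p under 0.05, and 0 by DESeq2). Snora41 stood at 11.99 and 13.0 CPM in control and at 35.1 and 35.2 in cKO, a log2 fold change of 1.49 ± 0.10 (SE, edgeR's adjusted p = 6.1e-53). Snora20 stood at 4.69 and 5.18 CPM in control and at 12.5 and 12.8 in cKO (1.36 ± 0.16). Both had cKO libraries that nearly coincided. Snora73b, or U17, rose from 170 and 180 to 449 and 438 CPM (1.34 ± 0.13, edgeR's adjusted p = 0.0025), and Snora23 from 115 and 137 to 326 and 301 (1.32 ± 0.13). Snora21, the most abundant H/ACA RNA per kilobase with 1999 CPM per kilobase, rose less, from 289 and 300 to 495 and 446 CPM (0.68 ± 0.03, edgeR's adjusted p = 1.3e-103). Snora62 stood at 55.9 and 75.9 CPM in control and at 187 and 178 in cKO (1.47 ± 0.26, adjusted p = 0.024 by edgeR). Snora57 stood at 24.8 and 29.6 CPM in control and at 75.2 and 70.9 in cKO (1.42 ± 0.22, edgeR's adjusted p = 0.014). The groups did not overlap for either, but both calls were lost without any single Mettl14 library (adjusted p = 0.0746 to 0.127 and 0.0553 to 0.0823). That of Snora62 was also lost without either Mettl3 cKO library (adjusted p = 0.0637). The lowest fold change among H/ACA RNAs of 80 or more counts was that of Snora5c (0.13 ± 0.43, not called). Same-strand exon sequence of Tbrg4 covers 93.4% of Snora5c, so its counts say little about its level.

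Of the 8 scaRNAs, 5 rose and 0 fell by edgeR's test, at adjusted and unadjusted p alike, and 4 and 0 by DESeq2, with a median of 0.95, or 0.87 over the 7 with 80 or more counts. Scarna2, a box C/D scaRNA with its own promoter that guides methylation of U2 snRNA, stood at 35.9 and 38.4 CPM in control and at 114 and 112 in cKO, a log2 fold change of 1.61 ± 0.05 (SE, edgeR's adjusted p = 3.1e-138). Scarna13 stood at 37.2 and 37.0 CPM in control and at 76.3 and 76.2 in cKO (1.04 ± 0.06). Scarna6, the most abundant scaRNA per kilobase with 291 CPM per kilobase, stood at 81.2 and 82.3 CPM in control and at 117 and 118 in cKO (0.53 ± 0.05). These 3 had the tightest replicates of the class. Scarna8 rose from 8.15 and 7.96 to 15.7 and 13.7 CPM (0.87 ± 0.14). Scarna3a rose from 0.261 and 0.324 to 0.859 and 1.00 CPM (1.65 ± 0.60, edgeR's adjusted p = 0.026), a call lost without any single Mettl14 library (adjusted p = 0.0549 to 0.151). Same-strand exon sequence of Mir1843b covers 46.4% of Scarna3a. Scarna9 (0.20 ± 0.14) and Scarna17 (0.57 ± 0.44) were not called. Scarna3b was at 0 in both Mettl14 controls with 11 counts in all, so no fold is given.

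Of the RNAs with a part in pre-ribosomal RNA processing, Snora73b and Snord13 rose and the others were not called. Snord118 (U8), needed for maturation of the large subunit RNAs, stood at 52.2 and 62.0 CPM in control and at 97.8 and 97.6 in cKO (0.77 ± 0.22, edgeR's adjusted p = 0.094). Snord13 (U13), which acts on the small subunit RNA, stood at 4.56 and 8.09 CPM in control and at 13.0 and 12.5 in cKO (1.01 ± 0.15, edgeR's adjusted p = 1.3e-10). Snora73a, the second U17 gene, stood at 0.847 and 1.23 CPM and then 2.06 and 1.64 (0.82 ± 0.37, adjusted p = 0.091 by edgeR). In each the cKO libraries lay above both controls, although Snord118 and Snora73a were not called. The paralogs Snora73a and Snora73b share much sequence, and the treatment of multiply mapped reads is unknown. A same-strand exon of Snhg3 also covers 77.6% of Snora73a.

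**Figure D1:**
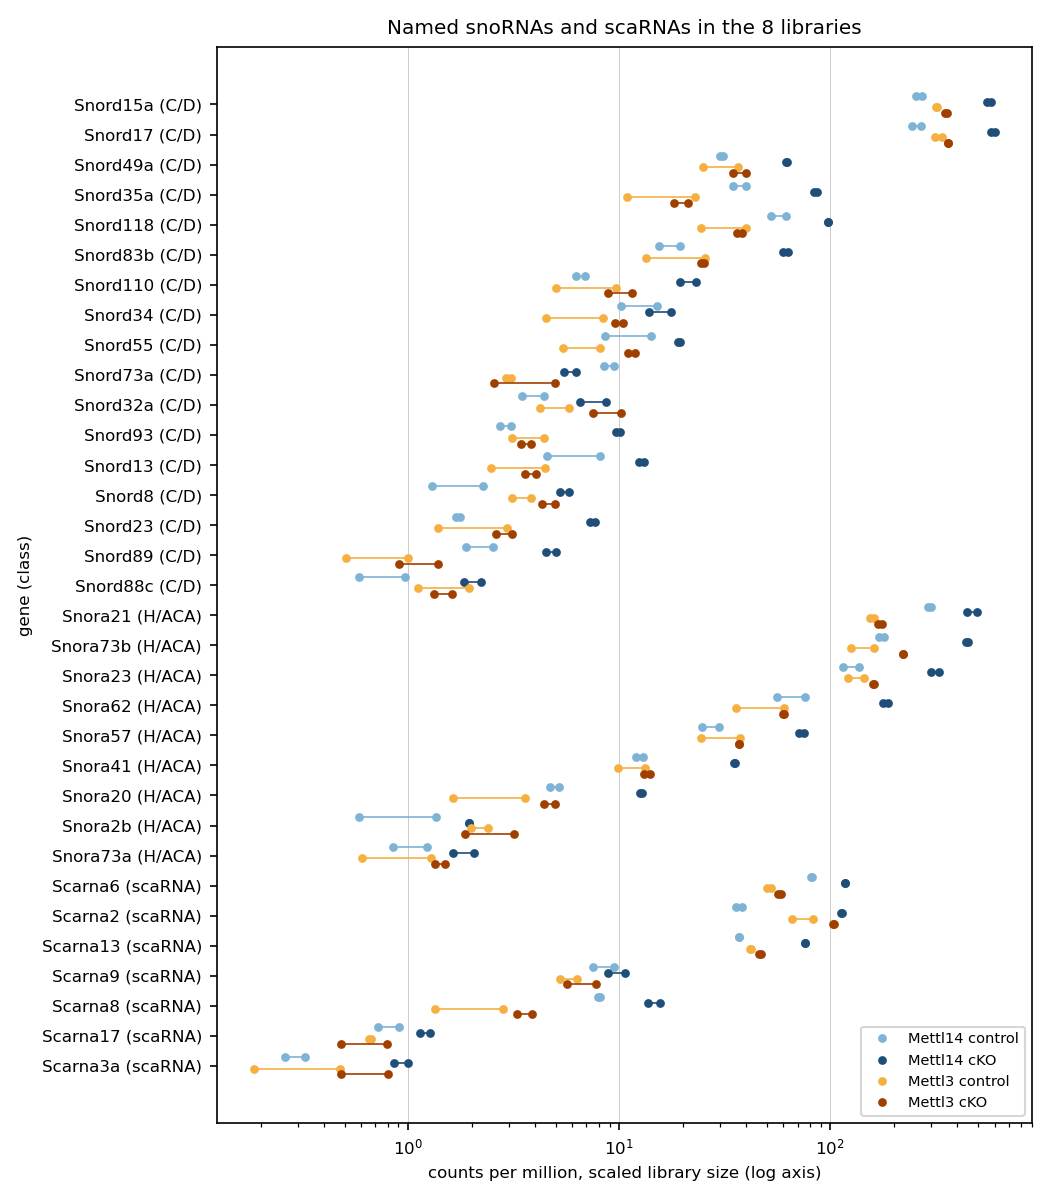
Level of each named RNA with 80 or more counts in each library, in CPM on a log axis; a point is 1 library, a line joins the 2 libraries of a group, and the class follows the name. Dark blue Mettl14 cKO points lie to the right of the light blue controls for Snord15a (255 and 273 against 578 and 551 CPM) and Snora41, and to the left for Snord73a, while the orange Mettl3 control pairs are often wide apart.

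The 2 libraries of Mettl3 control stood apart for these RNAs. Among the 65 RNAs with 80 or more counts, 60 were higher in replicate 2 than in replicate 1 of Mettl3 control, 40 of them by over 0.5 on the log2 scale, with a median log2 ratio of 0.61. In the other groups the medians were 0.20 (Mettl14 control), -0.05 (Mettl14 cKO) and 0.10 (Mettl3 cKO), and over all genes with 80 or more counts in Mettl3 control it was -0.01. Snord104 stood at 8.35 and 20.1 CPM in Mettl3 control, Snord58b at 7.33 and 17.8, and Snord35a at 10.9 and 22.8. By contrast the abundant Snord15a, at 316 and 320 CPM, and Scarna13, at 42.1 and 41.8, hardly differed between these libraries. The median ratio was 0.73 for C/D, 0.59 for H/ACA and 0.27 for scaRNAs. In the same group snRNA genes had a median ratio of 0.71, snoRNA and scaRNA genes with clone or predicted names 0.43, and miRNA genes 0.01.

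**Figure D2:**
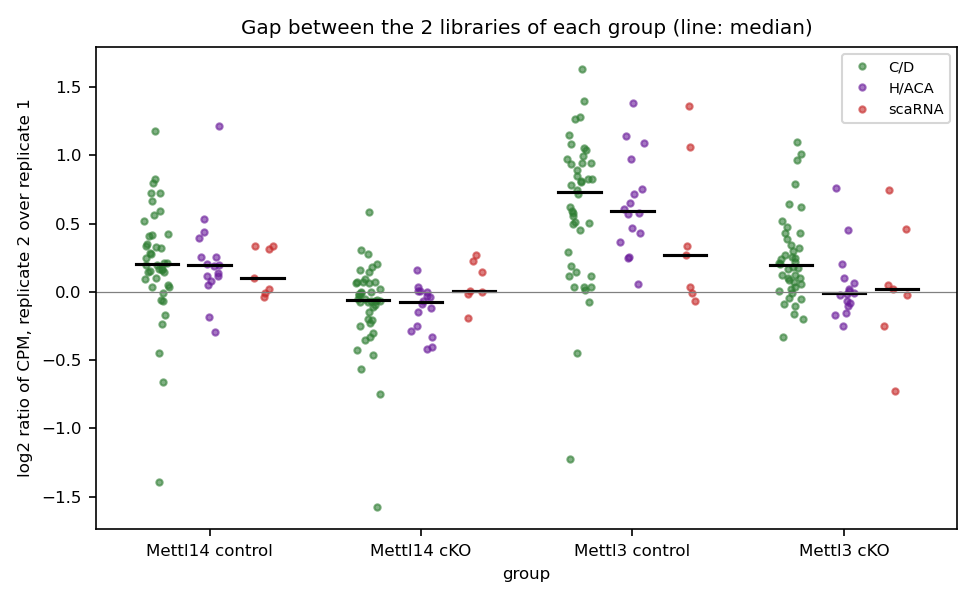
Log2 ratio of CPM between replicate 2 and replicate 1 in each group, for the 65 RNAs with 80 or more counts; a point is 1 RNA, colours are classes and black lines are class medians. In Mettl3 control 60 of the 65 points lie above 0, with class medians of 0.73, 0.59 and 0.27, against 53 in Mettl14 control, 45 in Mettl3 cKO and 23 in Mettl14 cKO.

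This gap enters the shared estimate of spread, since 1 fit covers all 4 groups. Fitted on the Mettl14 groups alone, 49 of the 71 RNAs rose and 1 fell in Mettl14 cKO (background 10.6% and 14.8%). Leaving out Mettl3 control replicate 1 gave 48 and 1 (background 11.8% and 14.6%). Among those gained in the fit of the Mettl14 groups alone were Snord35a (1.18 ± 0.05, edgeR's adjusted p = 3.5e-101), Snord118 (0.75 ± 0.05, adjusted p = 1.6e-54), Snord104 (1.46 ± 0.07) and Snord58b (1.51 ± 0.12).

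Mettl3 cKO showed smaller changes that hung on the scaling and on single control libraries. By edgeR's test 12 of the 71 RNAs (16.9%) were called higher and 0 lower, with a background of 15.8% called higher and 2.13% called lower over all genes. The share called higher is thus near the background of all genes tested. Among those with 80 or more counts, 18.5% of the RNAs and 29.1% of all genes were called higher, so there the share was below the background. At an unadjusted p under 0.05, 19 were higher and 1 lower by edgeR, and by DESeq2 7 and 0. The median log2 fold change was 0.31 over the 71 RNAs and 0.02 over all genes tested, and 0.28 and 0.14 over those with 80 or more counts. Both Mettl3 cKO libraries lay above both controls for 27 RNAs and below for 1, where 30.9% and 21.7% of all genes did so. Their share of the counts was 0.182% and 0.222% in the Mettl3 controls and 0.213% and 0.216% after knockout, so the cKO libraries lay between the controls. On scaled library sizes they summed to 1508 and 1824 CPM in control and to 1974 and 2017 in cKO, with both cKO libraries above both controls.

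Without Mettl3 control replicate 1 the median was 0.07, with 8 RNAs called higher and 0 lower (background 13.5% and 1.43%). Without replicate 2 it was 0.61, with 31 called higher and 0 lower (background 13.2% and 1.67%). Upper-quartile scaling moved the median of all genes by -0.18 in this comparison and turned its calls from 5542 higher and 746 lower to 1343 and 2246. Under it 5 RNAs were called higher and 1 lower (background 3.83% and 6.4%), and Snord15a, Snord17, Snora21 and Scarna6 changed sign (-0.03, -0.04, -0.06 and -0.02).

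Snord32a held its call in Mettl3 cKO under all 17 alternatives, with log2 fold changes of 0.59 to 1.06 and adjusted p of 3.6e-07 to 0.029. It stood at 4.22 and 5.77 CPM in Mettl3 control and at 7.55 and 10.2 in Mettl3 cKO (0.83 ± 0.15, edgeR's adjusted p = 1.3e-06). Scarna2 stood at 65.7 and 83.0 CPM in control and at 104 and 103 in cKO (0.48 ± 0.05, edgeR's adjusted p = 4.3e-22), and lost its call under the stricter count filters (adjusted p = 0.0501 and 0.0894). Snord55 stood at 5.43 and 8.10 CPM and then 10.96 and 11.9 (0.76 ± 0.13), a call lost with DESeq2 and with both stricter filters (adjusted p = 0.0746 to 0.135). For these 3 the cKO libraries lay above both controls. Snora20 (0.85 ± 0.20) and Scarna8 (0.79 ± 0.22) were called as well, but not without Mettl3 control replicate 1 (adjusted p = 0.309 and 0.451). The same held for Snord110 (0.48 ± 0.14, adjusted p = 0.84 without it) and Snord34 (0.64 ± 0.18, adjusted p = 0.336 without it). Scarna8 was also lost without Mettl3 cKO replicate 1 (adjusted p = 0.0846), Snord110 without replicate 2 (adjusted p = 0.367), and Snord34 without either (adjusted p = 0.279 and 0.409). Snora73b (0.62 ± 0.13, edgeR's adjusted p = 0.049) lost its call in 12 of 17 alternatives.

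The difference between the knockouts was tested in the same fit, as the Mettl14 change minus the Mettl3 change. It was above 0 for 24 RNAs and below 0 for 1 (background 6.65% and 15.4%), with a median of 0.75 against 0.15 over all genes tested. By class, 13 C/D, 8 H/ACA and 3 scaRNAs were above. Snord93 stood at 9.62 and 10.1 CPM in Mettl14 cKO, with 3.11 and 4.38 in Mettl3 control and 3.83 and 3.43 in Mettl3 cKO, and its changes differed by 1.81 ± 0.27 (edgeR's adjusted p = 6.7e-10). Those of Snord23 differed by 1.71 ± 0.34 (adjusted p = 7.0e-06 by edgeR), a call lost without Mettl3 control replicate 2 (adjusted p = 0.051). For Snora41 the difference was 1.26 ± 0.14, for Scarna2 1.13 ± 0.07 and for Snord15a 0.94 ± 0.04. These 3 rose in Mettl14 cKO, and of them Scarna2 and Snord15a (0.15) were also called in Mettl3 cKO. The Mettl3 call of Snord15a was lost with RLE scaling, DESeq2, both stricter filters and the 2 groups alone (adjusted p = 0.0558 to 0.509), and its fold change turned negative with upper-quartile scaling (-0.03). Snord73a differed in the other direction (-0.94 ± 0.26, edgeR's adjusted p = 0.0021), a call lost without Mettl3 cKO replicate 2 (-0.38, adjusted p = 0.455).

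For some RNAs the changes in the knockouts were alike in size, and the test did not separate them. Snord55 had 0.76 ± 0.11 in Mettl14 cKO and 0.76 ± 0.13 in Mettl3 cKO, and Snord32a 0.94 ± 0.18 and 0.83 ± 0.15. Scarna8 had 0.87 ± 0.14 and 0.79 ± 0.22. Their differences had standard errors of 0.15, 0.24 and 0.26, so sizeable unequal changes are not excluded by these data. Without Mettl3 control replicate 1, 39 of the 71 differences were called above 0 (background 6.24%). Without Mettl3 control replicate 2, 22 were above 0 and 4 below (background 5.88% and 15%).

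**Figure D3:**
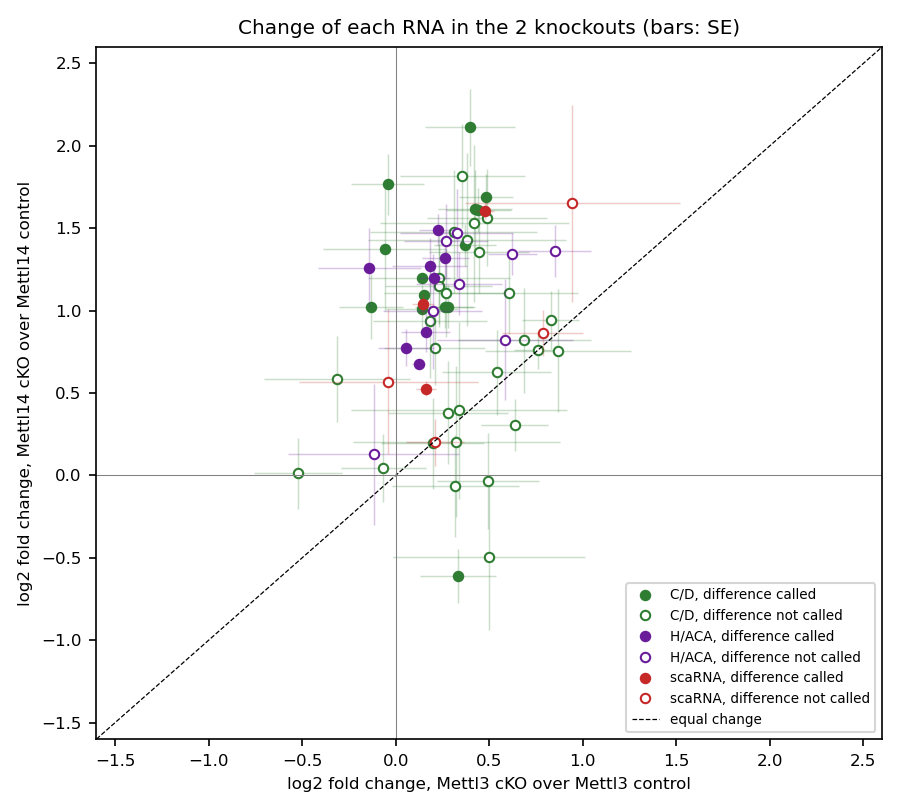
Log2 fold change of each of the 65 RNAs with 80 or more counts in Mettl3 cKO (x) and Mettl14 cKO (y), each against its own control; bars are standard errors, filled points are RNAs whose changes differed by edgeR's test, and the dashed line marks equal changes. Most points lie above the line, among them Snord23 (0.40 and 2.11), and Snord73a is the filled point below it (0.33 and -0.61).

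The 2 control groups differed in some of these RNAs. Each line has its own control group, so line, batch and cell mixture cannot be told apart. In Mettl14 control minus Mettl3 control the median log2 fold change was -2.13 for fibroblast markers and 1.34 for embryonic stem cell markers. Between the controls, 19 RNAs were higher and 8 lower in Mettl14 control than in Mettl3 control (26.8% and 11.3% of them, background 23.4% and 22.9%). The median log2 fold change was 0.33, against -0.42 over all genes tested and 0.15 over those with 80 or more counts. Scarna8 stood at 8.15 and 7.96 CPM in Mettl14 control and at 1.35 and 2.81 in Mettl3 control (1.96 ± 0.19), and Snord73a at 8.47 and 9.45 against 3.06 and 2.91 (1.58 ± 0.18). Snord89 (1.54 ± 0.34) was also among the highest. Scarna2 was lower in Mettl14 control (-1.001 ± 0.06), as were Snord88c (-0.97 ± 0.39) and Snora2b (-1.16 ± 0.33). Same-strand exon sequence of Kansl2 covers 67.2% of Snora2b. Without Mettl14 control replicate 1 the calls of Snord88c (adjusted p = 0.26) and Snora2b (adjusted p = 0.155) were lost, as was that of Snord88c without Mettl3 control replicate 2 (adjusted p = 0.392). The groups of Scarna8, Snord73a and Scarna2 did not overlap. Without Mettl3 control replicate 2, 34 RNAs were higher and 7 lower (background 23.4% and 19.5%). Without Mettl3 control replicate 1 there were 17 and 17 (background 23.1% and 19.5%), and without Mettl14 control replicate 1 there were 17 and 4 (background 22.2% and 16.2%).

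Most intron RNAs had a higher fold change than their host in Mettl14 cKO. The 63 RNAs inside a gene have 53 distinct hosts, of which 44 are protein-coding, 11 of these encoding ribosomal proteins, and 9 are noncoding. Of the 53 hosts, 8 rose and 30 fell by edgeR's test, with a median log2 fold change of -0.25. The background was 10.9% called higher and 13.5% called lower over all genes tested. Over those with 80 or more counts it was 18.3% and 24.7%. Among the 58 RNAs wholly in introns, 55 had a higher fold change than their host, with a median difference of 1.15. Host values are counts over exons, so the RNA and its host are different products of the same primary transcript.

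Of the 58, 20 rose while their host fell, 7 rose with a host that rose and 9 rose with a host that was not called. Snora62 rose (1.47 ± 0.26) while its host Rpsa, a ribosomal protein gene, fell by 0.86 ± 0.02 on the log2 scale, from 2270.5 and 2267 to 1247 and 1257 CPM. Snora20 rose while Tcp1, a chaperonin subunit gene, fell by 0.62 ± 0.03, and Snord17 rose while Snx5 fell by 0.55 ± 0.03. Snord15a rose and its host Rps3 was not called (0.01 ± 0.03, edgeR's adjusted p = 0.80). Snord73a and its host Rps3a1 both fell, the host by 0.36 ± 0.03. In Mettl3 cKO 23 hosts rose and 0 fell by edgeR's test (33 and 2 at an unadjusted p under 0.05, and 11 and 3 by DESeq2). The background there was 15.8% called higher and 2.13% called lower over all genes tested. Over those with 80 or more counts it was 29.1% and 2.59%. In Mettl3 cKO 42 of the 58 intron RNAs had a higher fold change than their host, and the median difference was 0.20.

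**Figure D4:**
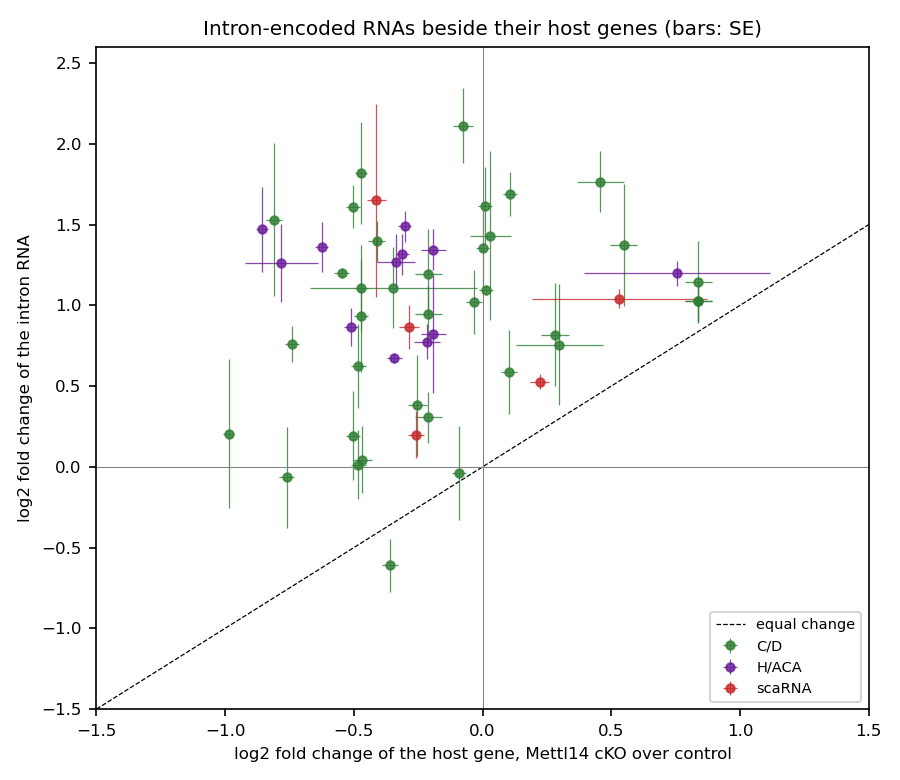
Log2 fold change in Mettl14 cKO of each intron-encoded RNA with 80 or more counts (y) and of its host gene (x); a point is 1 RNA, bars are standard errors and the dashed line marks equal changes. Snord73a (host -0.36, RNA -0.61) is the point below the line, and many of the others lie left of 0 for the host, as Snora62 does (host -0.86, RNA 1.47).

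RNAs of the same host gene did not all have the same fold change. Snord11 and Snord70 lie in introns of Nop58, which encodes a C/D particle protein and stood at 625 and 640 CPM in control and at 454 and 439 in cKO (-0.50 ± 0.03). Snord11 stood at 6.00 and 6.67 CPM in control and at 17.97 and 20.7 in cKO (1.61 ± 0.13), and Snord70 at 1.96 and 2.46 and then 2.58 and 2.48 (0.19 ± 0.28). Snord11 rose by the test and Snord70 was not called, and the difference between RNAs of 1 host was not tested. In Rpl13a (-0.21 ± 0.05), the values were 0.94 ± 0.18 for Snord32a, 0.31 ± 0.16 for Snord34 and 1.20 ± 0.28 for Snord35a. Snord34 stood at 10.2 and 15.1 CPM in control and at 17.7 and 13.8 in cKO, with overlapping groups. Snord33, the fourth snoRNA of this host, is among the genes at 0.

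In the noncoding host 2410006H16Rik, which itself rose (0.84 ± 0.05), the 3 RNAs had close values: 1.02 ± 0.13 for Snord49a, 1.15 ± 0.25 for Snord49b and 1.02 ± 0.13 for Snord65. In Rpl23a (-0.47 ± 0.03), Snord4a (1.11 ± 0.27) and Snord42a (0.94 ± 0.35) rose, and Snord42b, which touches an exon, had -0.49 ± 0.45. In Rcc1, Snora73b had 1.34 ± 0.13 and Snora73a 0.82 ± 0.37, although a same-strand exon of another gene, Snhg3, covers 77.6% of Snora73a. In Wdr43, Snord53 had 0.01 ± 0.21 and Snord92 0.62 ± 0.26, neither called.

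**Figure D5:**
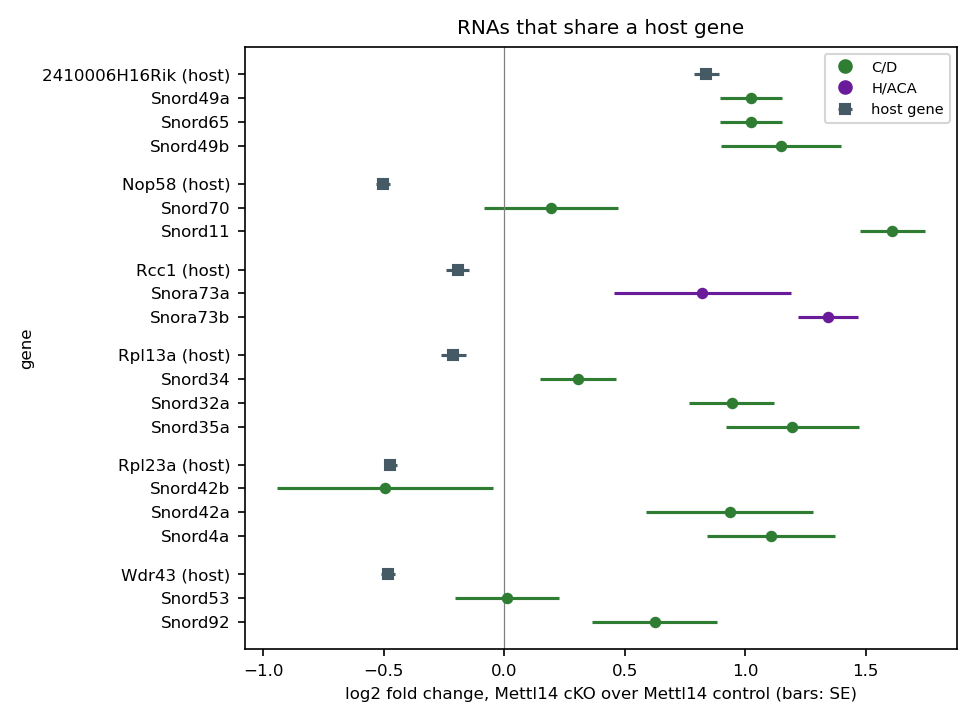
Log2 fold change in Mettl14 cKO for hosts with at least 2 RNAs of 80 or more counts; squares are hosts, circles are the RNAs and bars are standard errors. The values spread within Nop58 (0.19 and 1.61), Rpl13a and Rpl23a, and lie close together within 2410006H16Rik.

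Reads of unspliced host RNA can be counted in an intron RNA. Per kilobase, the level of the RNA was above the exon level of its host in all 8 libraries for 23 of the 58 and below it in all 8 for 17. The ratio of the mean levels had a median of 1.25, and ran from 0.00348 (Snora19) to 66.5 (Snora73b over Rcc1). Snord15a had 23.9, Snord17 15.7, Snora21 12.7 and Scarna13 63.9, so these stood well above their hosts. Snora20 had 0.302, Snord73a 0.309, Snord82 0.393 and Snora41 0.505, and for them the part of unspliced host RNA was not tested. Snord23 (1.01) and Snord110 (1.20) stood near the host level in the mean and above it in 4 and 5 libraries.

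Length went with the calls as a description. Counts and box class also differ between the length bins, and their part in the calls was not tested. Of the RNAs under 100 bases 17 of 38 rose in Mettl14 cKO (median 0.88), of those from 100 to under 150 bases 19 of 26 (1.18), and of those of 150 bases or more 6 of 7 (1.20). Across the 65 RNAs with 80 or more counts, length and log2 fold change correlated at r = 0.21 (Pearson) and rho = 0.18 (Spearman). GGAC, a common core of m6A sites, occurred in 16 of the 71 annotated sequences (22.5%) and in 41.6% of the other transcripts of 60 to 300 bases. These sets were not matched for length, and a longer sequence has more places for GGAC. The median log2 fold change in Mettl14 cKO was 1.15 with GGAC and 1.02 without it, with median lengths of 133 and 89 bases. These letters on the transcript strand are no evidence of a methylated site.

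Other small RNA genes were tested in the same comparison of Mettl14 cKO with its control, where 10.9% of all genes tested were called higher and 13.5% lower. Of 341 further snoRNA and scaRNA genes with clone or predicted names, 71 rose (20.8%) and 3 fell (median 0.71). Of 408 snRNA genes 72 rose (17.6%) and 4 fell (median 0.71). Of 494 miRNA genes 26 rose and 7 fell (median 0.33), so the share that rose, 5.26%, was below that of all genes. Such shares depend on counts: among all genes with 80 or more counts, 18.3% rose. In the order given, 126, 144 and 92 genes of these classes had 80 or more counts and reads in both Mettl14 cKO libraries. Of the 71 RNAs, 65 had 80 or more counts, so the shares are not matched for counts. snRNA genes summed to 1988 and 2477 CPM for Mettl14 control and to 3750 and 3598 after knockout, and mitochondrial tRNA genes to 92.8 and 118 and then 229 and 214. Ribosomal RNA genes moved in the opposite direction, from 450 and 519 to 98.9 and 100.4 CPM, as did the mitochondrial genome, from 36525 and 36915 to 15188 and 15115. Olfactory and vomeronasal receptor genes, which these cells should not express, summed to 110.4 and 125 CPM in the Mettl14 controls and 180.0 and 193 after that knockout. In the Mettl3 line they summed to 388 and 392 CPM in control libraries and 243 and 233 in knockout libraries. The part of these shifts, and of the fibroblast and primitive endoderm markers given above, in the rise of the snoRNAs was not tested. Per kilobase, at least 68 of the 71 RNAs stood over 10 times above the silent receptor genes in every library.

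Genes for the proteins of the snoRNA particles mostly fell or were not called. In Mettl14 cKO 10.9% of all genes tested were called higher and 13.5% lower, and 18.3% and 24.7% of those with 80 or more counts. Of the 6 H/ACA particle genes 1 rose (Nop10, 0.17 ± 0.07) and 3 fell in Mettl14 cKO, with Gar1 at 34.2 and 30.4 CPM in control and 13.0 and 12.5 in cKO (-1.34 ± 0.10, edgeR's adjusted p = 1.5e-40). Dkc1, which encodes the pseudouridine synthase dyskerin, stood at 398 and 391 and then 416 and 399 CPM (0.05 ± 0.03, not called). Of the 4 C/D particle genes Nop56 rose (0.11 ± 0.03), and Nop58, Snu13 (-0.32 ± 0.06) and the methyltransferase gene Fbl (-0.37 ± 0.05) fell. DESeq2 called 3 lower in each of these lists and 0 higher. Of 7 genes for assembly factors 0 rose and 6 fell, among them Znhit6 (-0.87 ± 0.05) and Znhit3 (-0.84 ± 0.07). Of 6 Cajal body genes 0 rose and 4 fell, including Coil (-0.68 ± 0.03), the coilin gene, and Nolc1 (-0.70 ± 0.03).

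Of 10 genes for debranching and end processing, 0 rose and 7 fell in Mettl14 cKO. By edgeR 0 rose at an unadjusted p under 0.05 in any of the last 3 lists, and DESeq2 called 0 higher there. Xrn2, a nuclear exonuclease gene, stood at 275 and 283 CPM in control and 211 and 209 in cKO (-0.41 ± 0.03). Dbr1, which encodes the enzyme that opens intron lariats (-0.15 ± 0.07), and Exosc10, a nuclear exosome gene (-0.05 ± 0.04), were not called. In Mettl3 cKO 3 of 6 H/ACA genes rose, led by Dkc1 (0.36), 1 of 4 C/D genes, 1 of 7 assembly genes, 1 of 6 Cajal body genes and 6 of 10 end-processing genes. By edgeR 15.8% of all genes tested were called higher in Mettl3 cKO, and 29.1% of those with 80 or more counts. DESeq2, with its other scaling, called 1 of these list genes higher and 2 lower. Coil fell by 0.19. Over these lists the median log2 fold change in Mettl14 cKO ran from -0.58 (assembly factors) to -0.16 (H/ACA proteins), against 0.15 over all genes tested and -0.01 over those with 80 or more counts.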

How the data were processed

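Nuclear RNA of 8 samples in 4 groups of 2, grouped by their titles, was analysed. The deposited values are raw read counts of genes, as the authors made them. The submitters' processing notes name Trimmomatic 0.38, HISAT2 2.1.0, HTSeq, CASAVA and mm10. The kit was stranded, per the labels' protocols. The strand setting of the counting, the annotation release and the handling of multiply mapped reads are not stated in the labels, and overlapping genes and close copies may therefore lose reads or split them. IDs were matched without version to GENCODE M21 (54409 matched, 37 not), which gave names, classes, coordinates, hosts and sequences; 0 lines named no gene.

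Genes with at least 10 counts over the 8 libraries were tested, a minimum that a single group can meet. edgeR 4.0.16 in R 4.3.3 was run with glmQLFit (robust) and glmQLFTest after TMM scaling, as a single model of 4 group means (4 residual degrees of freedom), with Benjamini-Hochberg adjustment. The 4 contrasts were each cKO minus its control, the difference of these changes, and the controls. CPM uses TMM-scaled library sizes. The SE is the size of the log2 fold change divided by the square root of the F statistic of edgeR's test. DESeq2 1.42.0, limma-voom (limma 3.58.1), other scalings and filters and single left-out libraries were alternatives. Replicates correlated at r of at least 0.993 and differed by more than sampling noise (chi-square per degree of freedom 1.43 to 2.08). Named RNAs were, among called ones with 80 or more counts and groups apart, the 5 highest and 5 lowest of each class per knockout, the 3 highest and 3 lowest for the other contrasts, the 4 most abundant per kilobase of each class and fixed lists; others were chosen after their values were seen, as were the RNAs compared within a host. Members and lists were chosen with earlier results of these data known.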

Additional observations from a re-analysis of the deposited data

Results flagged for a closer look

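For 24 of the 71 RNAs the Mettl14 change was above the Mettl3 change and for 1 below it, by edgeR's test of the difference with Benjamini-Hochberg adjustment. Over all genes tested, 6.65% were called above 0 and 15.4% below. Among the named RNAs the log2 differences above 0, in falling order, were 1.81 for Snord93, 1.71 for Snord23, 1.43 for Snord88c, 1.26 for Snora41, 1.21 for Snord110, 1.19 for Snord8, 1.13 for Scarna2, 1.06 for Snord17, 1.05 for Snora23, 0.94 for Snord15a, 0.89 for Scarna13, 0.87 for Snord13, 0.74 for Snord49a, 0.55 for Snora21 and 0.37 for Scarna6. The RNA below 0 was Snord73a, at -0.94. Of these 16 calls, 7 held under every alternative run (Snord93, Snora41, Scarna2, Snord17, Snord15a, Scarna13 and Scarna6) and 9 were lost under at least 1. A single library ended the call of Snord8 and Snord13 (Mettl14 control replicate 1), of Snord13 and Snord23 (Mettl3 control replicate 2), of Snord73a (Mettl3 cKO replicate 2), of Snora23 (either Mettl3 cKO library), and of Snord49a and Snord88c (several libraries each). Groups of 2 are too small to look for a single outlying sample.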

How the results depend on the processing

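In Mettl14 cKO the count called higher ran from 41 to 49 over other scalings, tools and filters and from 33 to 48 with a library left out, and the count called lower from 0 to 1. With the other scalings, tools and filters, calls higher over all genes ran from 2111 of 35072 (DESeq2) to 4086 of 18941 (minimum of 80 counts). Of the 27 named calls, 19 held under all alternatives. In Mettl3 cKO, 12 called higher became 7 with RLE scaling, 5 with upper-quartile scaling, 3 with DESeq2 (adjusted p NA for 19 RNAs), 3 with filterByExpr, 3 with a minimum of 80 counts and 7 with the 2 groups alone, and 8 to 31 with a library left out; 1 was called lower with upper-quartile scaling, filterByExpr and the minimum of 80. Over all genes the calls higher moved too, from 5542 of 35072 to 3446 with RLE, 1343 with upper-quartile scaling and 1845 with DESeq2. They were 3292 of 21782 with filterByExpr, 2473 of 18941 with the minimum of 80 and 2950 with the 2 groups alone. The calls lower were 2246, 1260 and 1462 with upper-quartile scaling, filterByExpr and the minimum of 80. Snord15a, Snord17, Snora21 and Scarna6 turned negative with upper-quartile scaling (-0.032, -0.045, -0.063 and -0.025), and Snora21 with the minimum of 80 (-0.00143). With a library left out, the median ran from 0.072 to 0.61 (C/D 0.074 to 0.66, H/ACA 0.019 to 0.51). For the difference, 20 to 39 were called above 0 and 0 to 4 below, with medians of 0.44 to 0.95 (C/D 0.36 to 0.94, H/ACA 0.57 to 1.10, scaRNA 0.40 to 0.83); DESeq2 called 0 below (1 at an unadjusted p under 0.05). Between the controls, 13 to 34 were higher and 4 to 17 lower, with medians of 0.13 to 0.69 (C/D 0.22 to 0.76, H/ACA 0.0516 to 0.71, scaRNA -0.0294 to 0.63); upper-quartile scaling gave -0.0672 for scaRNAs. Without Mettl3 control replicate 2, Snord49a (0.284) and Snord83b (0.371) turned to higher in Mettl14 control, with left-out ranges from -0.269 and from -0.565. A further 77 fold changes, of 28 named RNAs, changed sign under an alternative while called under neither setting, so no direction is given to them. Over all genes, with no library left out, 927 (DESeq2) to 3647 (upper-quartile scaling) were called above 0 for the difference. Between the controls 6573 (minimum of 80 counts) to 8237 (limma-voom) were higher and 4539 (DESeq2) to 9633 (upper-quartile scaling) lower. The cause of these moves was not tested. With the replicate number as a block, 45 RNAs were called higher in Mettl14 cKO, 17 in Mettl3 cKO and 29 for the difference. Between the controls 27 were higher and 6 lower. Over all 35072 genes the counts higher were 3674, 5481 and 2017, with 7552 higher and 5614 lower between the controls. The labels do not tie equal numbers together, and deviations of equal numbers correlated at -0.00127 in the Mettl14 line and 0.0375 in the Mettl3 line, so they share only a number. Low counts limit 6 RNAs with under 80 counts in all, of which 0 were called in any comparison of a knockout with its control.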
